A study of Mus musculus with 9 samples.

Results

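The genes of the Wnt pathway were examined in F9 cells, an established mouse embryonal carcinoma line used as a model of endoderm formation. A probe set belonged to the pathway when its single gene symbol began with Wnt, Fzd, Sfrp, Dkk, Dvl, Axin or Ctnnb, or was Lrp5, Lrp6, Tcf7, Tcf7l1, Tcf7l2 or Lef1. This gave 50 of the 12488 probe sets on the arrays, for 40 genes, and no member carried the symbol Tcf7. They comprise 16 probe sets for 14 ligands, 14 for 10 receptors, 6 for 6 secreted antagonists, 8 for 7 intracellular transducers and 6 for 3 nuclear factors. The 3 groups were cells given retinoic acid (RA) at 0.5 µM, cells given trichostatin A (TSA), an inhibitor of histone deacetylases, at 0.07 µM, and cells given the ethanol vehicle. Each group had 3 arrays, and all cells were harvested after 24 h. Nothing in the labels tells whether the 3 samples of a group came from separate cultures, and the p-values therefore reflect spread that may be technical. They describe the core facility in different words for the vehicle samples than for the RA and TSA samples, so any facility difference and the treatment cannot be told apart in comparisons with vehicle.

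Wnt proteins are secreted, lipid-bearing ligands that bind Frizzled receptors together with the co-receptors Lrp5 and Lrp6. In the canonical branch the signal passes through Dishevelled to a complex built on Axin, which otherwise marks β-catenin (Ctnnb1) for degradation, and spared β-catenin joins Tcf and Lef factors on DNA. Sfrp proteins bind Wnt ligands outside the cell, and Dkk1 blocks the Lrp co-receptors. In the early embryo the pathway acts in formation of the primitive streak and body axis, and Wnt6 has been linked to the formation of primitive endoderm by F9 cells.

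Each deposited value is a ratio to the mean of the 3 vehicle arrays for that probe set, so vehicle averages 1 by construction. Brightness is not recoverable, levels cannot be ranked between genes, and the presence of the line's defining markers can be judged only as change. On the log2 scale the median probe set of the arrays was lower than vehicle by -0.12 in RA and -0.17 in TSA; centring each array on its median moved these to 0.035 and 0.029, and the differences below are not corrected for them. Over the members the median SD between arrays was 0.361 in RA, 0.268 in TSA and 0.388 in vehicle. Vehicle replicate 3 was the highest vehicle array in 29 of the 50 members, against 39% of all probe sets. The 18S rRNA control probe sets had a median of 2.4 on vehicle replicate 3 and 0.961 on RA replicate 3, and lay between 0.0336 and 0.538 on the other arrays. The hybridisation spike-in control probe sets had medians of 1.05, 0.895 and 1.05 in vehicle, 0.616, 0.412 and 1.1 in RA and 0.557, 0.633 and 0.717 in TSA. Every treated array but RA replicate 3 was thus below all vehicle arrays in the spike-ins, and the part of this in the Wnt values was not tested. Markers of undifferentiated cells had 5 of 15 probe sets lower in RA and 4 lower in TSA, and endoderm markers had 4 of 26 higher in RA and 2 in TSA. Over all probe sets, 1.36% passed the test given below in RA and 3.48% in TSA. The endoderm rises were Gata6 (104698_at), Sox7, Foxa1 and Plat in RA, and Lama1 and Plat in TSA. In TSA the same Gata6 probe set (-0.62), Sox7 (-0.87) and Foxa1 (-0.73) were below vehicle without passing, and the endoderm list median was -0.16. Of 18 probe sets for fibroblast and feeder cell markers, none rose in RA and 4 rose in TSA; on the log2 scale the list mean lay between -0.334 and 0.013 in RA and between 0.367 and 0.683 in TSA, and was -0.426, -0.516 and 0.5 on vehicle replicates 1, 2 and 3. The part of these marker changes in the Wnt values was not tested.

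Promoters of the called genes Wnt6 and Sfrp2, and of Dkk1, which had the largest positive difference from vehicle of any member in both treatments but did not pass the test, are shown because the values turn on these genes. Each is the RefSeq window of build GRCm38.p6 from 250 bases before to 50 bases after the gene's start, 5′ to 3′ on the gene's strand. Capitals mark matches to the GC box (GGGCGG), a TCF/LEF core (CTTTGA), the TATA box (TATAAA) or the retinoid receptor half-site (AGGTCA), each searched on both strands. Wnt6 lies at chr1:74771642-74771941 on the plus strand, Sfrp2 at chr3:83766071-83766370 on the plus strand, and Dkk1 at chr19:30549447-30549746 on the minus strand.
Wnt6: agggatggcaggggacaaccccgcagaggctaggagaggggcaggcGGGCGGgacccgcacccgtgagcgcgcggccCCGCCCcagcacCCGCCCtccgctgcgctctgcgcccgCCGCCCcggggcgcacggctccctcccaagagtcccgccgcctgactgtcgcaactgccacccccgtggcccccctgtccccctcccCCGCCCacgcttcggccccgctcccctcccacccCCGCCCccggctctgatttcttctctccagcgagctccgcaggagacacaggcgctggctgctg
Sfrp2: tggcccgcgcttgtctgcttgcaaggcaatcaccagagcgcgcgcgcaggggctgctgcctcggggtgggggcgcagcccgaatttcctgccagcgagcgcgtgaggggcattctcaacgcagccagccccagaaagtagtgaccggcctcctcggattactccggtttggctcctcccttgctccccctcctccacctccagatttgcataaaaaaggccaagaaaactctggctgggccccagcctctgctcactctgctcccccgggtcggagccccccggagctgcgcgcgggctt
Dkk1: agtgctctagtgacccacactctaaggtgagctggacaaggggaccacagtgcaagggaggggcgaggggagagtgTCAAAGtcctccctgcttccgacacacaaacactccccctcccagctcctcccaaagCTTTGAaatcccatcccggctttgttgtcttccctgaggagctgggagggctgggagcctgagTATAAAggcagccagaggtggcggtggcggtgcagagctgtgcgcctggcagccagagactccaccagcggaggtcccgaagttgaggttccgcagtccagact

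The Wnt6 window held 6 GC boxes and none of the other 3 motifs. The Dkk1 window held 2 TCF/LEF cores, 1 on each strand, and 1 TATA box. None of the 4 motifs matched in the Sfrp2 window, which says only that these letters are not in it. Wnt6 had 31 CpG dinucleotides, Sfrp2 had 22 and Dkk1 had 9, against a median of 7 over all 32851 promoters of the table. Of the 40 genes, 26 had a promoter in the table, 35 windows in all. These member windows had a median of 26 CpG dinucleotides and held 0 to 9 GC boxes each. A GC box was in 77.1% of these windows and in 35.7% of all promoters; the member windows had a median GC content of 70% against 52.7% for all. The TCF/LEF core was in 14.3% of the member windows and 16% of all promoters, the TATA box in 20% and 13.6%, and the retinoid half-site in 0 of 35 member windows and 16.3% of all promoters.

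Over the whole pathway few members passed the test, which was limma with Benjamini-Hochberg adjustment over 12422 probe sets and a threshold of 0.05. In RA against vehicle 0 of 50 passed, where 1.36% of all probe sets did; 6 of 50 had an unadjusted p under 0.05, against 12.7% of all. In TSA against vehicle Wnt6 passed as higher and Sfrp2 as lower, 2 of 50, where 3.48% of all probe sets passed; 8 had an unadjusted p under 0.05, against 19.6%. In RA against TSA only Wnt6 passed, 1 of 50, lower in RA, where 3.91% of all probe sets passed; 10 had an unadjusted p under 0.05, against 17.1%. The RA and vehicle arrays did not overlap in 7 members, against 17% of all probe sets, those of TSA and vehicle in 10, against 26.3%, and those of RA and TSA in 9, against 27.3%. The members' shares were thus near or below those of the arrays as a whole. The median member differed from vehicle by -0.14 in RA and -0.10 in TSA. Both comparisons with vehicle use the same vehicle arrays.

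**Figure D1:**
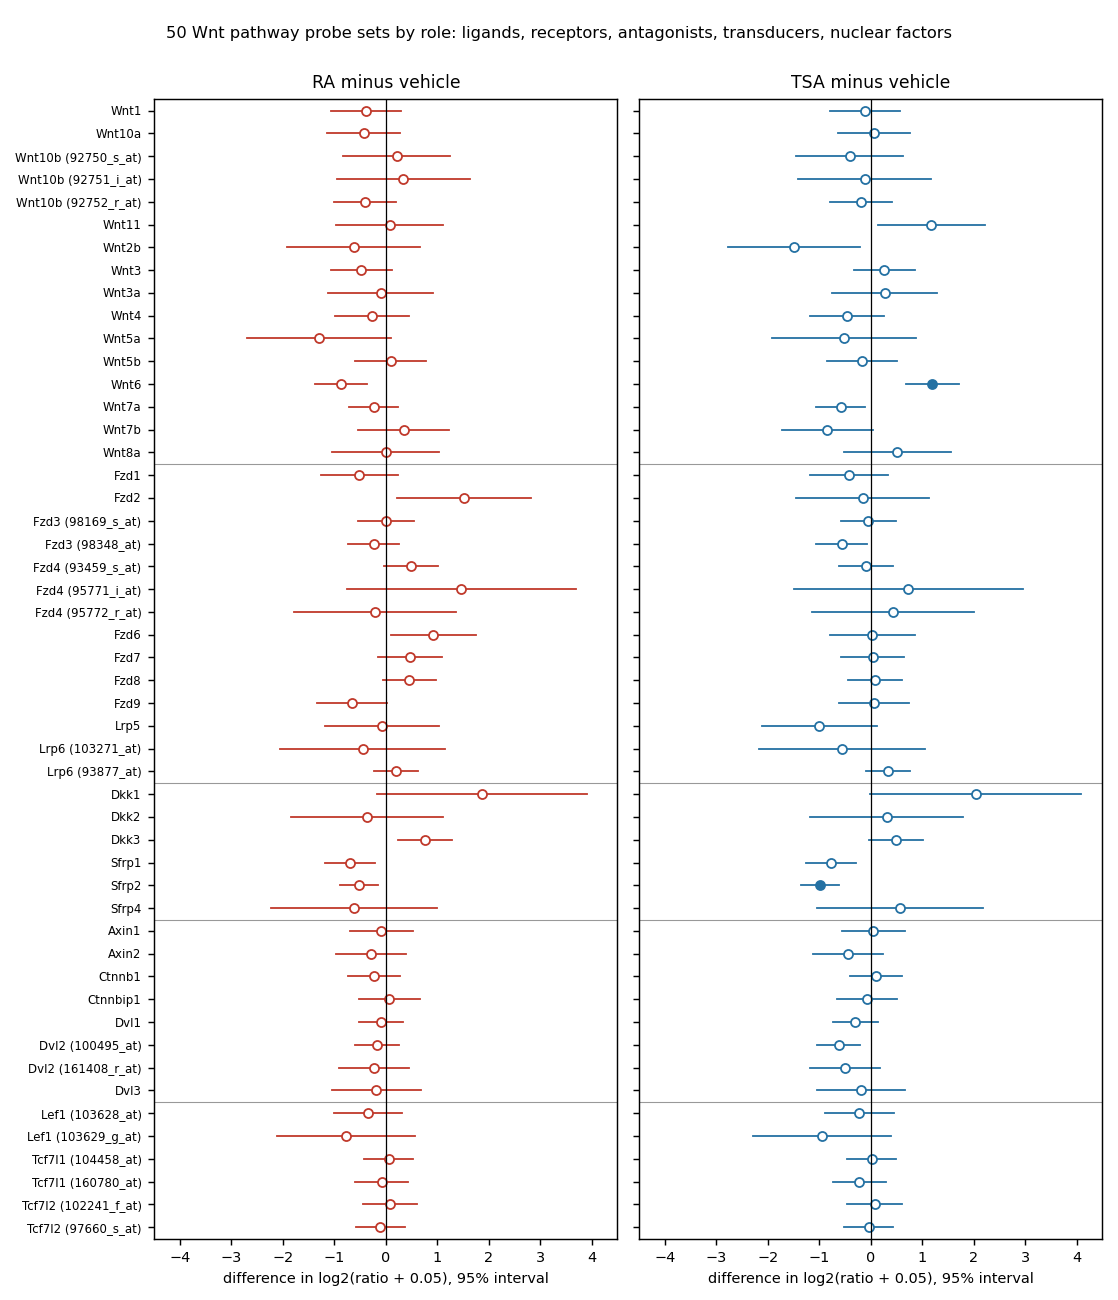
Difference from vehicle in log2(ratio + 0.05) for each of the 50 probe sets, RA on the left and TSA on the right, with 95% intervals from limma; horizontal lines separate the roles and filled points passed the test. Only Wnt6 (1.20) and Sfrp2 (-0.99), both in TSA, are filled.

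Among the ligands, Wnt6 stood on opposite sides of vehicle in the treatments. Its ratio was 0.462, 0.539 and 0.544 on the RA arrays, 2.53, 2.53 and 1.94 on the TSA arrays and 0.884, 0.834 and 1.28 on the vehicle arrays. Every TSA array was above every vehicle array, and every RA array was below them. Wnt6 averaged 0.515 ± 0.046 in RA, 2.33 ± 0.342 in TSA and 1 ± 0.245 in vehicle (SD, n = 3 each). It rose in TSA by 1.20 (SE 0.222, adjusted p = 0.0262 by limma) on the log2 scale. In RA it differed from vehicle by -0.87 (SE 0.222), which did not pass (adjusted p = 0.121 by limma). The direct difference of RA from TSA was -2.07 (SE 0.222, adjusted p = 0.00298 by limma).

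The RA against TSA call of Wnt6 held under all 21 alternatives, with adjusted p up to 0.018 by limma. The TSA against vehicle call held under 12 of 21. It was lost with quantile normalisation (limma adjusted p = 0.071), with the 6 arrays of the comparison alone (0.0834) and with the replicate number as a block (0.0505). It was also lost without vehicle replicate 1 (0.0699) or 2 (0.104), RA replicate 2 (0.052) or TSA replicate 1, 2 or 3 (0.0969, 0.124 and 0.0546), while the difference stayed between 1.09 and 1.45. Wnt10a, the next protein-coding gene on chromosome 1, did not pass in either treatment. It had ratios of 0.545, 0.630 and 0.977 in RA, 1.12, 1.02 and 0.885 in TSA and 0.794, 0.746 and 1.46 in vehicle, and its groups overlapped throughout, with differences of -0.43 in RA and 0.068 in TSA. Wnt10b and Wnt1, which neighbour each other on chromosome 15, did not pass either.

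Wnt5a, a ligand best known for signalling without β-catenin, was tightly grouped at 0.352, 0.380 and 0.358 in RA, below all vehicle arrays at 1.29, 0.672 and 1.04. On the TSA arrays it was 2.10, 0.267 and 0.482, so TSA replicate 1 lay above and the other two below the vehicle values. The RA difference of -1.30 did not pass (95% interval -2.70 to 0.098, adjusted p = 0.432 by limma). The spread that enters this test is shared by all groups and includes the scattered TSA arrays. Wnt5a also did not pass in RA with the 6 RA and vehicle arrays alone, or without TSA replicate 1. Wnt2b was 1.03, 0.391 and 0.352 in RA, 0.267, 0.213 and 0.330 in TSA and 1.04, 0.333 and 1.63 in vehicle. Its TSA arrays were low throughout, just under vehicle replicate 2, and the TSA difference of -1.49 did not pass (95% interval -2.78 to -0.20, adjusted p = 0.196 by limma).

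Wnt11, another ligand of the branch without β-catenin, had ratios of 3.94, 1.15 and 2.44 in TSA and 0.904, 0.704 and 1.39 in vehicle. TSA replicates 1 and 3 were high, and replicate 2 lay within the vehicle range; the difference of 1.18 did not pass (adjusted p = 0.203 by limma). The RA arrays, at 0.986, 0.756 and 1.40, covered the same range as vehicle. Wnt7a was 0.515, 0.761 and 0.684 in TSA and 0.866, 0.979 and 1.16 in vehicle, without overlap, and differed by -0.59 (adjusted p = 0.174 by limma). Wnt7b was 1.36, 0.771 and 1.73 in RA and 0.444, 0.724 and 0.402 in TSA, also without overlap, and the difference of RA from TSA of 1.19 did not pass (adjusted p = 0.157 by limma).

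The canonical ligands Wnt3, Wnt3a and Wnt8a, known for roles in the primitive streak or its mesoderm, did not pass in any comparison. Wnt3 was 0.657, 0.999 and 0.531 in RA, 1.22, 0.972 and 1.48 in TSA and 1.07, 0.942 and 0.984 in vehicle, and RA differed from TSA by -0.74 (adjusted p = 0.19 by limma). RA replicates 1 and 3 were below every vehicle array, and replicate 2 was among them. Wnt3a differed from vehicle by -0.10 in RA and 0.27 in TSA, and Wnt8a by -0.004 and 0.51. Wnt1, Wnt4, Wnt5b and the 3 probe sets of Wnt10b had differences between -0.41 and 0.34 in RA and between -0.46 and -0.11 in TSA, and none passed.

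**Figure D2:**
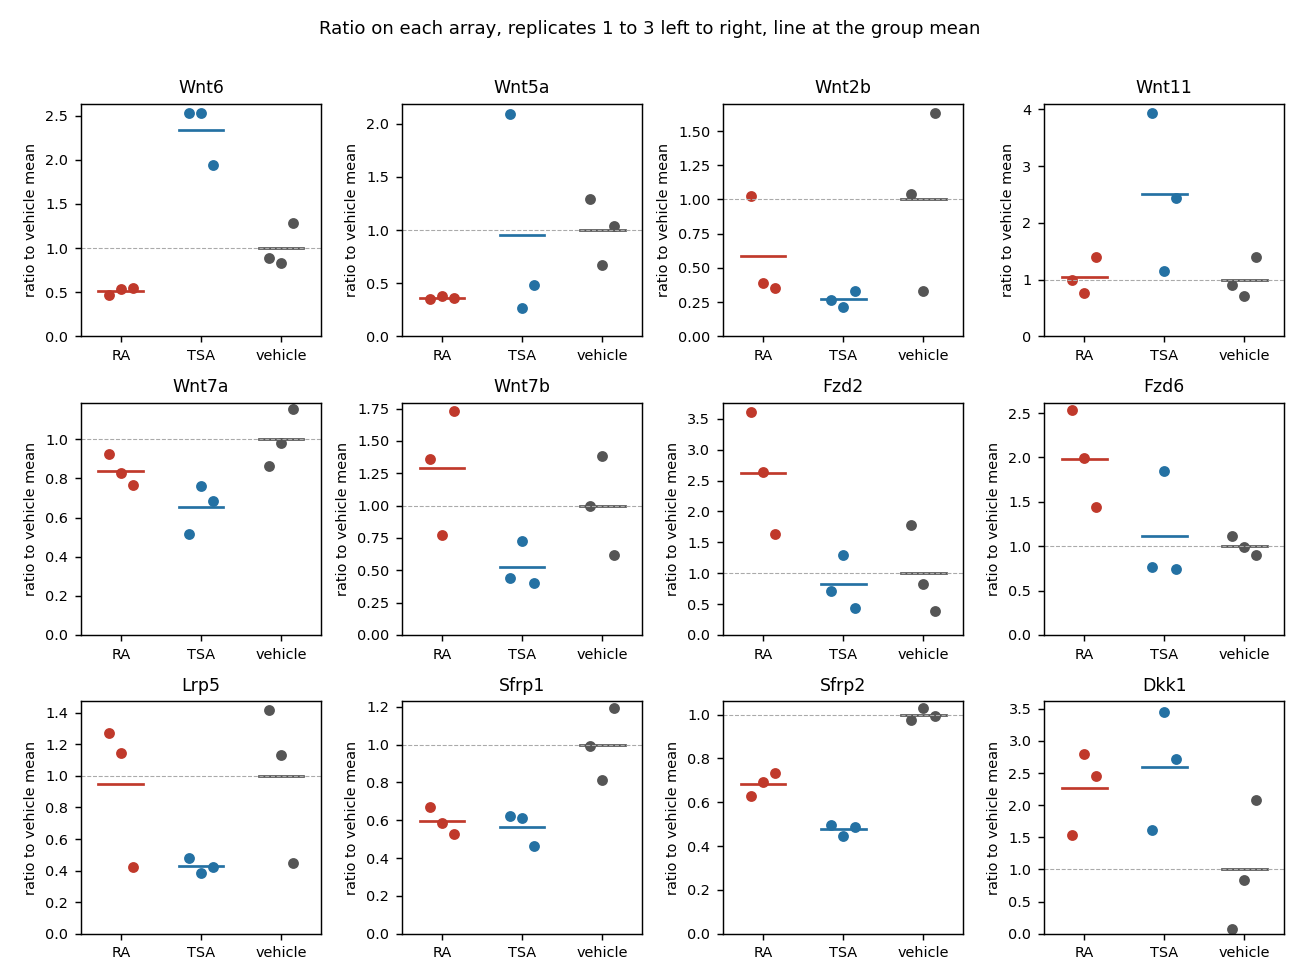
Ratio to the vehicle mean on each array for 12 members, with RA, TSA and vehicle from left to right, replicates 1 to 3 from left to right within a group, a line at the group mean and a dashed line at 1. The groups of Wnt6 do not overlap, at 0.462 to 0.544 in RA, 1.94 to 2.53 in TSA and 0.834 to 1.28 in vehicle, whereas the vehicle arrays of Dkk1 span 0.0716 to 2.08.

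No receptor passed in any comparison. Fzd2 had the largest RA difference of the Frizzled genes, with ratios of 3.60, 2.65 and 1.63 in RA, 0.719, 1.29 and 0.441 in TSA and 1.79, 0.824 and 0.388 in vehicle. RA was above TSA without overlap, but RA replicate 3 lay below vehicle replicate 1. The difference from vehicle was 1.52 in RA (95% interval 0.22 to 2.82, adjusted p = 0.309 by limma) and -0.16 in TSA, and RA differed from TSA by 1.68 (adjusted p = 0.173 by limma). Fzd6, which also acts in planar cell polarity, was 2.53, 1.99 and 1.44 in RA, above all vehicle arrays at 1.11, 0.989 and 0.898. Its TSA arrays were 0.761, 1.84 and 0.745, with only replicate 2 in the RA range, and the RA difference of 0.92 did not pass (adjusted p = 0.336 by limma).

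Fzd7 and Fzd8 averaged 1.40 ± 0.327 and 1.38 ± 0.208 in RA, 1.01 ± 0.158 and 1.04 ± 0.072 in TSA, and 1 ± 0.298 and 1 ± 0.239 in vehicle (SD, n = 3 each). Fzd9 was lower on average in RA, at 0.640 ± 0.241, than in vehicle, at 1 ± 0.140 (SD, n = 3 each). Their RA differences, 0.48, 0.46 and -0.65, had limma adjusted p from 0.414 to 0.518. Fzd1 differed by -0.51 in RA and -0.42 in TSA. Thus Frizzled genes lay on both sides of vehicle in RA.

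Lrp5, a co-receptor, was low on every TSA array and on 1 array of each other group. It was 1.27, 1.15 and 0.424 in RA, 0.480, 0.385 and 0.421 in TSA and 1.42, 1.13 and 0.447 in vehicle. All TSA arrays were low, and so were RA replicate 3 and vehicle replicate 3, the arrays with the highest 18S signal of their groups. The TSA difference of -0.998 did not pass with all arrays (adjusted p = 0.304 by limma). Without these 2 arrays it was -1.47 (adjusted p = 0.0246 by limma), and the difference of RA from TSA was 1.40 (adjusted p = 0.0226 by limma), against 0.93 with all arrays (adjusted p = 0.393 by limma). These arrays held the lowest Lrp5 ratios of their groups, so leaving them out necessarily widens the gap to TSA. It also leaves only 2 arrays each in RA and vehicle, and leaving out either array alone gave no Lrp5 call. Any link of the low ratios to the 18S signal was not tested.

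Several genes had probe sets that gave different pictures. The Affymetrix suffixes _s, _i, _r, _f and _g mark probe sets whose probes are shared between transcripts or are fewer or less specific than usual. The co-receptor Lrp6 had 1 probe set (93877_at) at 1.35, 1.01 and 1.15 in RA, 1.44, 1.23 and 1.16 in TSA and 1.09, 0.924 and 0.985 in vehicle. The other (103271_at) was 1.30, 1.07 and 0.251 in RA and 0.920, 1.37 and 0.214 in TSA, against 1.00, 0.968 and 1.03 in vehicle. In the second, replicate 3 of both treatments lay far below the rest, which the first did not show. Neither passed. For the receptor Fzd4 the RA differences of the 3 probe sets were 0.48 (93459_s_at), 1.47 (95771_i_at) and -0.20 (95772_r_at), and the TSA differences were -0.09, 0.73 and 0.43. Probe set 93459_s_at was 1.45, 1.11 and 1.70 in RA, 0.995, 0.990 and 0.797 in TSA and 0.860, 0.911 and 1.23 in vehicle, so RA lay above TSA without overlap (difference 0.57, adjusted p = 0.247 by limma). Probe set 95771_i_at had 0.245, 0.203 and 2.55 on the vehicle arrays, so vehicle replicate 3 made up most of its vehicle mean. Probe set 95772_r_at was 4.26 on TSA replicate 1, against 0.444 and 1.14 on the other TSA arrays. Probe set 98348_at of Fzd3 was 0.532, 0.612 and 0.867 in TSA and 0.906, 0.999 and 1.09 in vehicle, and the other, 98169_s_at, differed from vehicle by only -0.05 in TSA.

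**Figure D3:**
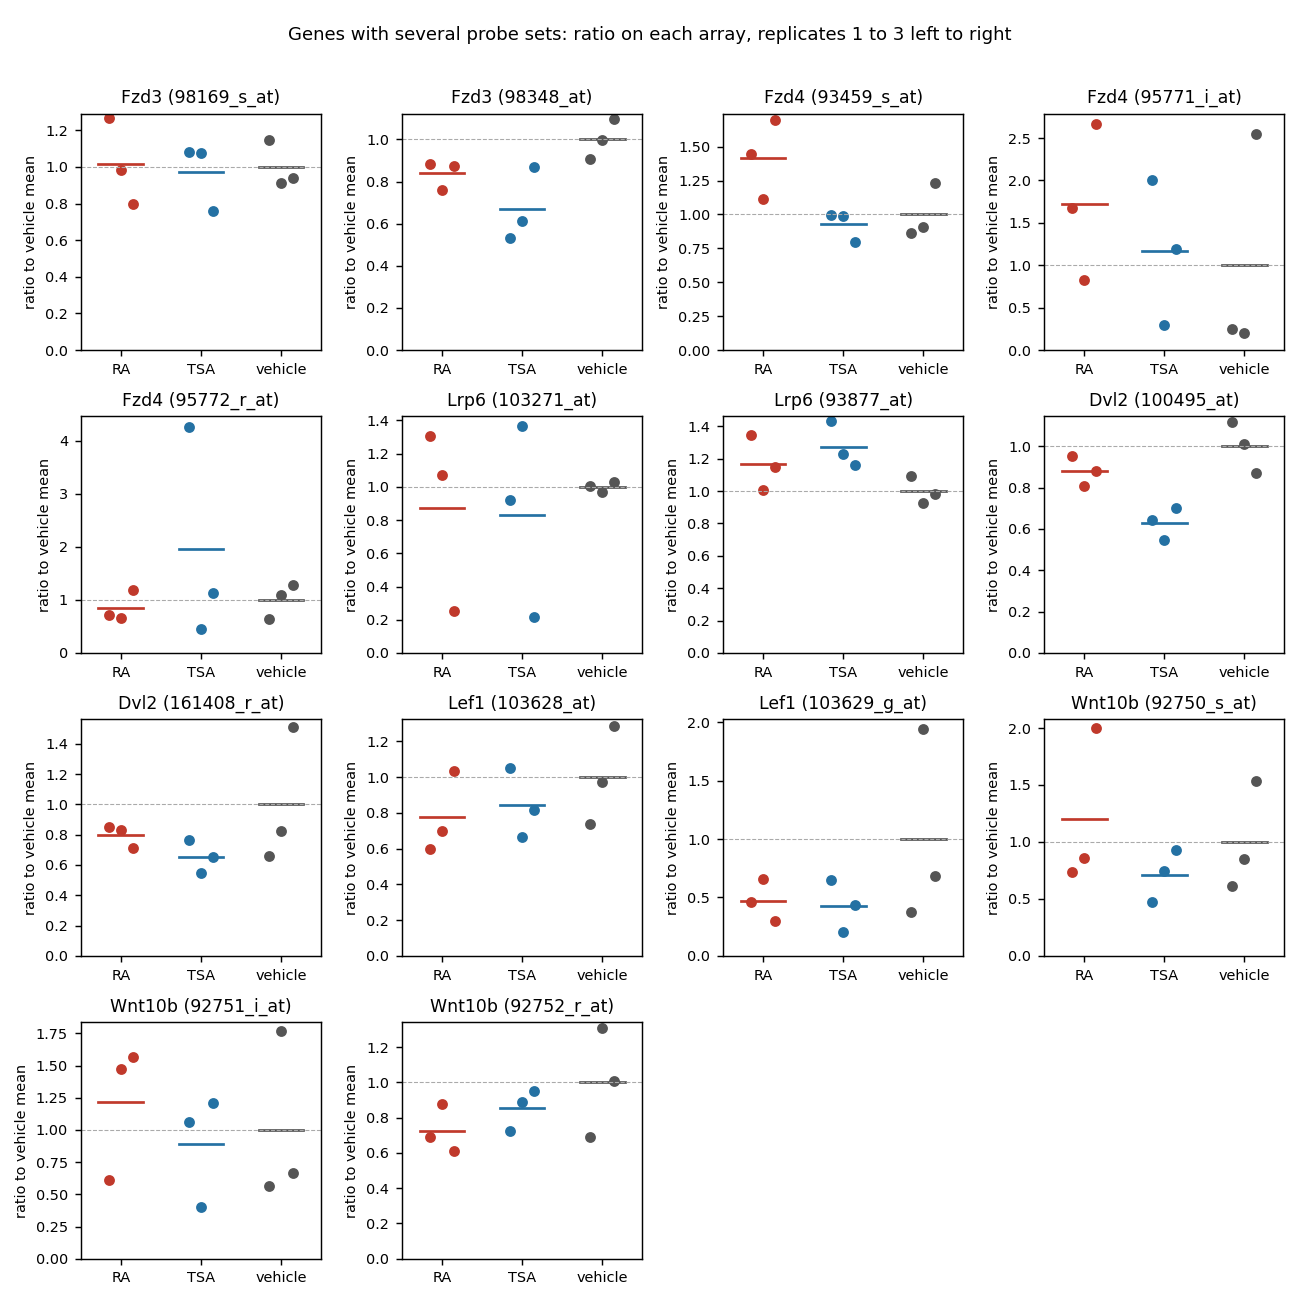
Ratio to the vehicle mean on each array for the 14 probe sets of 6 genes measured more than once, with RA, TSA and vehicle from left to right and a line at the group mean. The probe sets of Fzd4 differ in direction in RA, and replicate 3 of RA (0.251) and TSA (0.214) is low in only 1 of the 2 Lrp6 probe sets.

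Of the secreted antagonists, Sfrp2 fell in TSA and was also low in RA. Its ratio was 0.629, 0.693 and 0.734 in RA, 0.497, 0.446 and 0.489 in TSA and 0.973, 1.03 and 0.996 in vehicle. The 3 groups did not overlap, and the vehicle arrays lay close together, with an SD of 0.029. The TSA difference was -0.99 (SE 0.162, adjusted p = 0.0164 by limma). The RA difference of -0.52 (SE 0.162) did not pass (adjusted p = 0.213 by limma), nor did the direct difference of RA from TSA of 0.48 (adjusted p = 0.174 by limma). The TSA call held under 14 of the 20 alternatives that kept this probe set. It was lost with quantile normalisation (limma adjusted p = 0.0808), the 6 arrays alone (0.0608), and without vehicle replicate 2 (0.0736) or TSA replicate 1, 2 or 3 (0.0604, 0.0918 and 0.0615), while the difference stayed between -1.05 and -0.79.

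Sfrp1 resembled Sfrp2 in its array values. It was 0.669, 0.586 and 0.528 in RA, 0.620, 0.611 and 0.463 in TSA and 0.993, 0.815 and 1.19 in vehicle, so all 6 treated arrays were below all vehicle arrays. The differences of -0.69 in RA and -0.77 in TSA did not pass (limma adjusted p = 0.199 and 0.0939). Sfrp4 varied widely in RA and vehicle but little in TSA, with 0.459, 1.17 and 0.214 in RA, 1.18, 1.08 and 1.29 in TSA and 1.28, 1.49 and 0.236 in vehicle. RA replicate 3 and vehicle replicate 3 were its lowest arrays.

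Dkk1, itself a known target of β-catenin, had ratios of 1.54, 2.79 and 2.45 in RA, 1.61, 3.45 and 2.72 in TSA and 0.0716, 0.844 and 2.08 in vehicle. Vehicle replicate 3 lay above replicate 1 of each treatment, and vehicle replicate 1 was far below every other array. The differences of 1.87 in RA and 2.04 in TSA did not pass (limma adjusted p = 0.44 and 0.256), and the intervals ran from -0.18 to 3.91 and from -0.007 to 4.08. Dkk3, a divergent family member, was 1.28, 1.84 and 2.14 in RA, 1.29, 1.42 and 1.52 in TSA and 0.897, 1.17 and 0.931 in vehicle. All treated arrays were above all vehicle arrays, and the differences of 0.76 in RA and 0.48 in TSA did not pass (limma adjusted p = 0.194 and 0.297). Dkk2 differed from vehicle by -0.37 in RA and 0.30 in TSA, with overlapping groups. Sfrp1 and Sfrp2 were thus below vehicle on every treated array and Dkk3 above it, but only Sfrp2 in TSA passed. Over all probe sets, 17% did not overlap with vehicle in RA and 26.3% in TSA, more often lower than higher.

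The transducers had small estimated differences in RA, between -0.28 and 0.072 for all 8 probe sets. The 95% intervals were wider, and that of Dvl3 ran from -1.04 to 0.68. Axin2, a scaffold that β-catenin itself induces and a common readout of the pathway, was 0.611, 0.907 and 0.828 in RA, 0.740, 0.574 and 0.764 in TSA and 0.806, 0.708 and 1.49 in vehicle. The groups overlapped, and vehicle replicate 3 alone was high. The 95% intervals of its log2 difference were -0.96 to 0.40 in RA and -1.12 to 0.24 in TSA. Ctnnb1, which encodes β-catenin, was 1.02, 0.671 and 0.849 in RA, 1.06, 1.13 and 0.992 in TSA and 1.24, 0.895 and 0.860 in vehicle. Its differences of -0.23 in RA and 0.097 in TSA did not pass (limma adjusted p = 0.742 and 0.852).

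Dvl2, a Dishevelled gene, was the transducer with the largest TSA difference. Probe set 100495_at was 0.643, 0.546 and 0.703 in TSA, below all vehicle arrays at 1.12, 1.01 and 0.872, and differed by -0.63 (adjusted p = 0.112 by limma). Its RA arrays, at 0.952, 0.809 and 0.879, overlapped vehicle. The other Dvl2 probe set (161408_r_at) was 0.763, 0.550 and 0.652 in TSA and 0.661, 0.826 and 1.51 in vehicle, with a similar TSA difference of -0.50 but overlapping groups (adjusted p = 0.398 by limma). Dvl1, Dvl3, Axin1 and Ctnnbip1, which encodes an inhibitor of β-catenin binding to Tcf factors, differed from vehicle by between -0.18 and 0.072 in RA and between -0.30 and 0.049 in TSA.

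The nuclear factors that carry β-catenin to DNA showed no call. Tcf7l1, the Tcf factor that mostly represses in pluripotent cells, averaged 1.05 ± 0.155 in RA, 1.01 ± 0.154 in TSA and 1 ± 0.134 in vehicle by probe set 104458_at (SD, n = 3 each), and its other probe set (160780_at) differed by -0.08 in RA and -0.23 in TSA. The intervals of the first ran from -0.42 to 0.54 in RA and from -0.46 to 0.49 in TSA. The probe sets of Tcf7l2 differed from vehicle by 0.083 and -0.10 in RA and by 0.073 and -0.04 in TSA. Lef1 was 0.598, 0.696 and 1.03 in RA, 1.05, 0.665 and 0.814 in TSA and 0.739, 0.973 and 1.29 in vehicle by probe set 103628_at. By probe set 103629_g_at it was 0.464, 0.659 and 0.299 in RA, 0.647, 0.208 and 0.434 in TSA and 0.379, 1.94 and 0.683 in vehicle, where vehicle replicate 2 alone was high. Its differences lay between -0.95 and -0.22 over both treatments and probe sets, with limma adjusted p from 0.421 to 0.724.

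Other genes of the pathway were taken from 2 lists, both chosen with earlier results of these data known. Of 53 probe sets for 37 other regulators, 2 fell in RA, where 1.36% of all probe sets were called, and 2 in TSA, where 3.48% were. The falls were in 2 genes in RA and in 1 gene in TSA. The TSA count was near its background share and the RA count above it. Because of how the list was chosen, neither count is a test against these shares. The list had medians of -0.11 and -0.18, against -0.12 and -0.17 over all probe sets. In RA the falls were Ctbp2 (-1.66, adjusted p = 0.00746 by limma), a corepressor that can bind Tcf factors, and the cell surface proteoglycan Sdc1 (-2.04, adjusted p = 0.011 by limma). Ctbp2 (92554_at) was 0.305, 0.315 and 0.228 in RA and 1.13, 0.998 and 0.867 in vehicle, and its other probe set (160979_at) was similar at -1.68 without passing (adjusted p = 0.0738 by limma). Sdc1 (96033_at) was 0.162, 0.266 and 0.179 in RA and 1.21, 1.13 and 0.665 in vehicle, whereas its other probe set (161370_f_at) differed by -0.29. In TSA the 2 falls were both of Csnk1d, a casein kinase, at -0.95 (97263_s_at) and -1.95 (97264_r_at), while its other 2 probe sets differed by -0.20 and -0.26. Wls, which carries Wnt ligands to the cell surface, was 1.70, 1.24 and 2.00 in RA, 0.575, 0.304 and 0.660 in TSA and 0.849, 1.13 and 1.02 in vehicle. All RA arrays were above and all TSA arrays below the vehicle arrays, and RA differed from TSA by 1.62 (adjusted p = 0.0242 by limma). RA also differed from TSA in Ctbp2 (-1.69 and -2.17), Sdc1 (-1.72, probe set 96033_at) and the same 2 Csnk1d probe sets (0.98 and 1.85), which makes 3 regulator probe sets higher and 3 lower, where 3.91% of all probe sets were called. Neither difference of Wls from vehicle passed, 0.67 in RA (adjusted p = 0.408 by limma) and -0.95 in TSA (adjusted p = 0.136 by limma).

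Of 36 probe sets for 30 genes known as Wnt targets in some tissue, all of which have other inputs too, 4 rose and 3 fell in RA, where 1.36% of all probe sets were called, and 2 rose and 2 fell in TSA, where 3.48% were. The list median was 0.066 in RA and -0.10 in TSA. This list was chosen with earlier results of these data known, so its counts are no test against the shares over all probe sets. The RA rises were Zfp703 (4.0), the homeobox genes Cdx1 (3.85) and Msx2 (3.52), and the ephrin ligand Efnb1 (1.48), and the falls were the growth regulator Myc (-2.39), the activin antagonist Fst (-1.94) and the nuclear receptor Nr5a2 (-1.25, probe set 103728_at). In TSA Cdx1 (3.91) and Msx2 (3.53) rose, and Fst (-1.70) and the cyclin Ccnd1 (-1.16, probe set 94231_at) fell. Efnb1 was 3.03, 2.39 and 3.21 in RA, 1.41, 1.54 and 1.54 in TSA and 1.12, 0.843 and 1.04 in vehicle, so TSA lay between RA and vehicle without overlap. RA differed from TSA in Jun (1.97), Tnfrsf19 (1.97), Vegfa (1.60), Efnb1 (0.91), Zfp703 (4.14), Myc (-1.86) and both Nr5a2 probe sets (-1.29 and -1.46), 5 higher and 3 lower, where 3.91% of all probe sets were called. Cdx1 and Msx2 rose and Fst fell in both treatments. The members Axin2, Lef1 and Dkk1 did not pass in either, but their intervals were wide, and those of Dkk1 reached 3.91 in RA and 4.08 in TSA. The part of Wnt signalling in any of these values was not tested.

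Many of these calls were lost when an array was left out or the processing was changed. Leaving out an array also moved the count over all probe sets, in RA against vehicle from 169 to between 54 and 209. With each of the 9 arrays left out in turn, the RA calls of Ctbp2, Cdx1, Zfp703, Myc and Fst and the TSA calls of Cdx1, Msx2 and Fst held in all 9 fits. Those of Nr5a2 (103728_at) in RA and of Ccnd1 and Csnk1d (97263_s_at) in TSA held in 0 of 9. With all arrays these had been near the threshold (limma adjusted p = 0.0311, 0.0433 and 0.0471). They were lost even without an array of the group outside the comparison, so their loss does not single out any array. The RA calls of Sdc1 and Efnb1 held in 7, both lost without vehicle replicate 2 or RA replicate 1, and that of Msx2 in 5, lost without vehicle replicate 2 or any RA array. That of Csnk1d (97264_r_at) in TSA held in 6, lost without vehicle replicate 2 or TSA replicate 1 or 2.

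Between the treatments the calls of Zfp703, Myc and Ctbp2 (92554_at) held in all 9 fits, and that of Vegfa in 8, lost without TSA replicate 2. Ctbp2 (160979_at) held in 7, lost without TSA replicate 1 or 2, and Sdc1 in 7, lost without TSA replicate 2 or 3. Nr5a2 (103728_at) held in 6, lost without RA replicate 2 or TSA replicate 1 or 2, and Wls in 5, lost without RA replicate 1 or 3 or TSA replicate 1 or 2. Csnk1d (97264_r_at) held in 4, lost without any RA array or TSA replicate 1 or 2. Tnfrsf19, Efnb1, Nr5a2 (102932_at) and Csnk1d (97263_s_at) held in 2, lost without vehicle replicate 2 or any RA or TSA array. Jun held in 2, those without vehicle replicate 3 or TSA replicate 2.

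Under quantile normalisation the calls of Cdx1 and Msx2 were lost in both treatments, as were those of Nr5a2 in RA, of Ccnd1 and Csnk1d in TSA, and of Wls, Ctbp2 (160979_at), Csnk1d, Jun, Nr5a2 (102932_at), Tnfrsf19 and Efnb1 between the treatments. With a variance trend the calls of Cdx1 in RA, of Fst in both treatments, and of Ccnd1 and Csnk1d (97263_s_at) in TSA were lost. Without the arrays with the highest 18S signal those of Nr5a2, Efnb1 and Fst in RA, of Ccnd1 and Csnk1d in TSA, and of Wls, Csnk1d, Jun, Tnfrsf19 and Efnb1 between the treatments were lost. With only the 6 arrays of a comparison those of Sdc1, Msx2, Nr5a2 and Efnb1 in RA, of Ccnd1 and Csnk1d in TSA, and of Wls, Csnk1d (97263_s_at), Jun, Tnfrsf19 and Efnb1 between the treatments were lost. Centring the arrays ended the TSA calls of Ccnd1 and Csnk1d (97263_s_at). The calls of Zfp703, Myc and Ctbp2 (92554_at), in RA against vehicle and against TSA, held under each alternative that tested these probe sets singly.

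**Figure D4:**
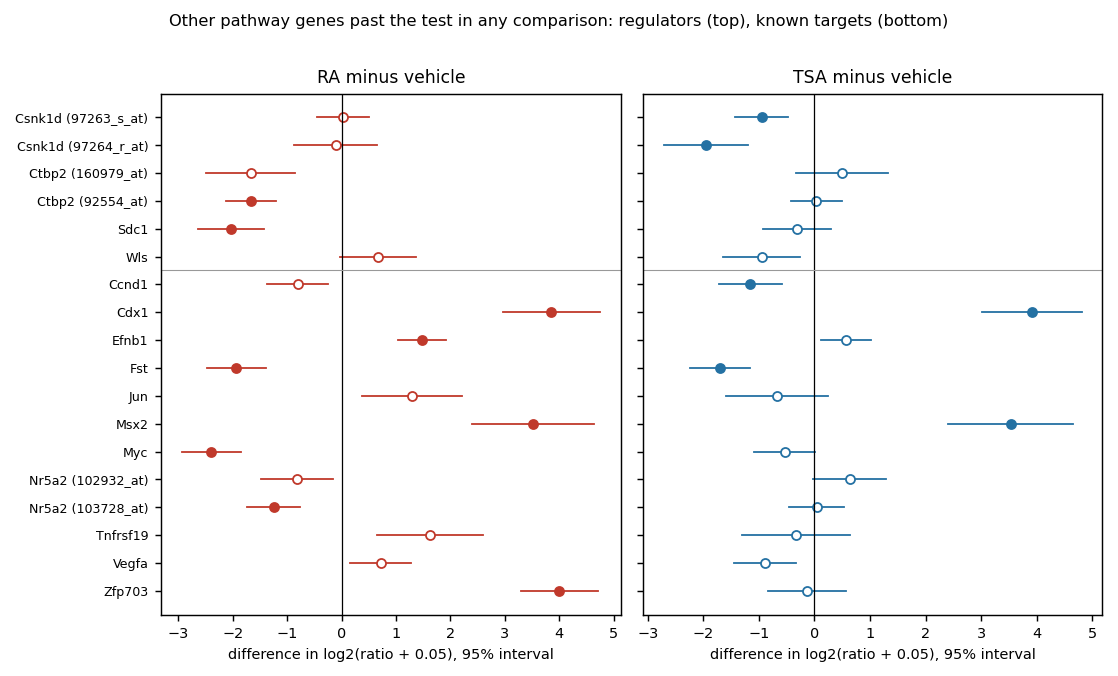
Difference from vehicle in log2(ratio + 0.05) with 95% intervals for probe sets of other regulators (above the line) and known targets (below it) that passed in any of the 3 comparisons, RA on the left and TSA on the right; filled points passed in that comparison with vehicle. Cdx1 and Msx2 are high and Fst low in both panels, and Zfp703 (4.0) and Myc (-2.39) are filled only in RA.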

How the data were processed

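RNA of 9 samples was hybridised to Affymetrix arrays at a core facility, and the vehicle samples were analysed in GeneSpring, per the labels. The authors' deposited values are linear ratios: in every probe set the vehicle arrays averaged 1 within 1.93e-07. How brightness was turned into ratios is not stated in the labels. Array medians lay between 0.819 and 1.01, and the ratios were used as deposited. Without 66 control probe sets, 12422 were tested; 10833 of these had 1 gene symbol in the platform annotation, 396 several and 1193 none.

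Values were analysed as log2(ratio + 0.05), so differences understate changes of low values. The 9 arrays were fitted together in limma 3.58.1 under R 4.3.3 (6 residual degrees of freedom), and the 3 comparisons were taken from that model with Benjamini-Hochberg adjustment over all 12422 probe sets. The procedure was tested on simulated data. The simulated noise was independent between arrays and held no array effects, so that test does not cover the array differences seen here. Precision is limited by having 3 arrays a group.

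The members and lists were chosen with earlier results of these data known. Members were named in full when they passed any comparison, when they had 1 of the 2 largest differences of their role in a treatment, or when they were Axin2, Ctnnb1, Lef1, Tcf7l1, Tcf7l2, Lrp5 or Lrp6. Wnt1, Wnt3, Wnt3a, Wnt4, Wnt5b, Wnt7a, Wnt7b, Wnt8a, Wnt10a, Wnt10b, Wnt11, Fzd1, Fzd3, Fzd6 to Fzd9, Sfrp1, Sfrp4, Dkk2, Dvl1, Dvl3, Axin1 and Ctnnbip1 were added after their values were seen. Alternatives were other pseudocounts, scalings and filters, a variance trend, array weights, a replicate block, the 6 arrays of a comparison, averaged probe sets and arrays left out.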

Additional observations from a re-analysis of the deposited data

How the results depend on the processing

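In RA against vehicle the count of changed members stayed at 0 in every alternative but array weights, which gave 8. In TSA against vehicle, where 2 members changed, it was 0 after quantile normalisation, 1 without the lowest 30% of probe sets by mean (a filter that keeps 37 members and removes Sfrp2), 0 from the 6 arrays alone, 15 with array weights, 7 with array weights estimated gene by gene, and 0 to 2 with 1 array left out. In RA against TSA, where 1 member changed, it was 2 with array weights, 2 without the arrays with the highest 18S signal (Wnt6 and Lrp5), and 1 in every fit with 1 array left out. Because vehicle averages 1 in every probe set, the filter by mean ranks probe sets by their RA and TSA ratios, not by brightness. It therefore tends to remove probe sets that fell, among them Sfrp2. Of the 289 TSA calls left over all probe sets, 280 were rises. The planned array weights did not converge and gave vehicle replicate 2 a weight of 21.4, so that vehicle rested mostly on 1 array; the gene by gene estimate, chosen after seeing the data, gave it 3.19. With the replicate number as a block the count was 0 in RA against vehicle, 1 in TSA against vehicle (Wnt6 lost) and 1 in RA against TSA. Of the 9 pairs of arrays with the same number, deviations from the group means correlated between -0.032 and 0.289, 4 of them over 0.1, against 3 of 18 pairs with different numbers. The pairs of replicate 3 lay between 0.19 and 0.289, and 6 of 9 arrays correlated best with their own number, a hint of pairing from the data and not from the design. The numbers were not taken to pair the samples because the labels name no shared batch, and these correlations cannot settle whether a batch was shared. The block also ended the calls of Nr5a2 in RA, Ccnd1 in TSA, and Jun and Efnb1 between the treatments. Over all probe sets, 169 changed in RA against vehicle, 432 in TSA against vehicle and 486 in RA against TSA. These counts were 87, 108 and 152 after quantile normalisation, 549, 1771 and 890 with gene by gene weights, 2196, 4494 and 943 with the planned weights, and 61, 168 and 480 from the 6 arrays alone. Centring the arrays gave 148 rises of 185 calls in RA, against 116 of 169 uncentred, and 379 of 461 in TSA, against 274 of 432 uncentred. With 1 array left out they ranged over 54 to 209, 107 to 494 and 167 to 624. The RA count was 111 with a variance trend and 98 without the arrays with the highest 18S signal. Of 150 member results, no called one changed its direction, and 70 uncalled ones changed sign in at least 1 alternative. Outside array weights, the calls gained were both of Lrp5. The cause of these changes was not tested, except where the filter removed a probe set.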
